A study of Canis lupus familiaris with 6 samples.

Results

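The carbonic anhydrases are zinc enzymes that interconvert CO2 and water with bicarbonate and a proton. In the kidney tubule a cytosolic enzyme and enzymes facing the lumen or the tissue side work together in bicarbonate reclamation and acid secretion, and members differ mainly in where in or outside the cell they sit. Here the transcripts of 8 members, CA2, CA3, CA4, CA8, CA9, CA12, CA13 and CA14, were followed in MDCKII, a polarizing line of Madin-Darby canine kidney cells. Members were taken as every probe set annotated with 1 of these symbols and no other, which gave 16 of the 42924 probe sets and 8 of the 15115 genes on the array that were not controls.

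The study compared 3D cultures (3 arrays), in which cells were plated on 100 µl Matrigel per 60 mm dish under medium with 2% Matrigel and formed cysts, with 2D cultures (3 arrays), grown as a flat monolayer on plastic without Matrigel. Matrigel is an extract of basement membrane. All RNA was taken 36 h after plating, the labels name no other treatment and no batch, and the design asked which genes are raised in 3D. The labels call the replicates biological and name no separate thaws or passages, so p-values measure the spread between these samples only.

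Values are log2 expression, 1 per probe set and array, and lie on 2 scales. On the arrays of replicates 2 and 3 the medians were 7.06 to 7.08 and the lower quartiles 5.64 to 5.67. Replicate 1 had a median of 5.26 and a lower quartile of 3.38 in its 3D array, against 5.42 and 3.52 in its 2D array. Differences were therefore tested on replicates 2 and 3 (limma, n = 2 arrays per group, adjusted over all 42924 probe sets, threshold 0.05), and the replicate 1 difference is given beside them as 1 untested value. Signals of different probe sets are not comparable as amounts of RNA, so levels were not ranked between genes. Where a gene has several probe sets they are called the first, the second and the third in the order of their identifiers. The kidney epithelium markers that could be measured, among them CDH1, CDH16, EPCAM, KRT8 and PAX8, gave 0 of 10 changed genes (1 at an unadjusted p under 0.05). Of all genes 4.2% were higher and 3.09% lower, so that 0 of 10 lies near those shares. An unadjusted p under 0.05 was reached by 25.2% of all genes. KRT18, an epithelial keratin, read 13.94 and 13.71 in 3D against 13.83 and 14.01 in 2D. Poly-A spike-in controls, added to the RNA before labelling, averaged 9.77 and 8.92 over 24 probe sets in 3D replicates 2 and 3, against 8.74 and 8.81 in 2D. The 3' minus 5' difference of the GAPDH control, a sign of RNA integrity, was 0.31 and 0.40 in 3D and 0.20 and 0.16 in 2D. The actin control did not share this direction. It gave 1.80 and 1.79 in 3D and 1.90 and 2.07 in 2D with one 5' probe set, and 0.57 and 0.76 in 3D and 0.71 and 0.89 in 2D with the other. In replicate 1 the GAPDH difference was 1.47 in 3D and 1.67 in 2D, so that these arrays stood apart in this measure too. Their part in the results was not tested.

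CA4, CA13 and CA14 transcripts rose in 3D, CA4 and CA13 by about 2.5-fold and CA14 by about 1.7-fold, while CA2, CA3, CA8, CA9 and CA12 did not pass the test. Of the 16 probe sets 5 were higher in 3D (3.65% of all probe sets were) and 0 were lower (2.96% of all) by limma, and of the 11 that did not pass 0 had an unadjusted p under 0.05. Over all 42924 probe sets 10072 had one, counting those that passed. By gene, 3 of 8 were higher, against 4.2% of all genes, and 0 were lower, against 3.09%. Several probe sets of a gene read the same transcript, so that the 16 are not independent. The median difference was 0.105 over the member probe sets and -0.005 over all probe sets. In bulk RNA a change in the share of cells that make a transcript and a change in the amount per cell cannot be told apart.

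The enzymes that work outside the cell were 4 of the 8 genes (CA4, CA9, CA12 and CA14) with 7 probe sets, of which 4 were higher. The other 4 genes (CA2, CA3, CA8 and CA13) encode proteins of the cytosol and had 9 probe sets, of which 1, that of CA13, was higher. Over all probe sets 3.65% were higher. By gene the split was narrower, with 2 of 4 higher outside the cell and 1 of 4 in the cytosol, against 4.2% of all genes. The 4 higher probe sets were those of CA4 and CA14 and are not independent. No test was made of this split.

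CA4 encodes an enzyme tethered to the outer face of the membrane by a lipid anchor and known from the brush border of the proximal tubule. Its first probe set, which stands for the gene in the counts by gene, read 9.24 and 9.56 in 3D replicates 2 and 3, against 8.07 and 8.04 in 2D. The groups were clearly separate, with both 3D arrays more than 1 unit above both 2D arrays, a gap far wider than the spread within a group. It rose 2.54-fold, a difference of 1.35 on the log2 scale (SE 0.133, 95% interval 1.02 to 1.67, adjusted p = 0.00978 by limma over 2 arrays a group). The second probe set shares the sequence number in its identifier with the first, so the pair is not independent, and it read 7.95 and 8.56 in 3D against 6.75 and 6.92 in 2D. The rise was 2.68-fold, a difference of 1.42 (SE 0.206, 95% interval 0.92 to 1.92, adjusted p = 0.0198 by limma over 2 arrays a group). In both probe sets 3D replicate 3 was the highest array. On the separate scale of replicate 1 the first probe set read 8.55 in 3D and 7.19 in 2D, and the second 6.74 in 3D and 5.61 in 2D. These differences of 1.36 and 1.13 had the same sign as those of the other replicates, but sizes cannot be compared between the 2 scales.

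CA14 encodes a transmembrane enzyme with its active site outside the cell, described in the mouse kidney in the proximal tubule. Its first probe set read 11.47 and 11.14 in 3D against 10.55 and 10.44 in 2D. The second read 9.41 and 9.10 in 3D against 8.53 and 8.42 in 2D. Neither overlapped between groups, and in both probe sets 3D replicate 2 was the highest array, the reverse of the order seen for CA4. The rise was 1.75-fold on the first (log2 difference 0.81, SE 0.139, 95% interval 0.47 to 1.15, adjusted p = 0.0300 by limma over 2 arrays a group) and 1.72-fold on the second (log2 difference 0.78, SE 0.135, 95% interval 0.45 to 1.11, adjusted p = 0.0306 by limma over 2 arrays a group). In replicate 1 the first probe set read 9.50 in 3D and 8.84 in 2D, a difference of 0.66. The second read 5.42 in 3D and 2.96 in 2D, a difference of 2.46, where the 2D value lay below that array's lower quartile of 3.52.

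CA9 and CA12 encode transmembrane enzymes that face the outside, both known in human tumours as genes raised by hypoxia. CA9 read 6.76 and 6.89 in 3D and 6.85 and 6.76 in 2D on its second probe set, so that the groups overlapped (difference 0.02, 95% interval -0.24 to 0.28, limma adjusted p = 0.946). The first lay below the lower quartile on all 4 arrays, at 5.57 and 5.36 in 3D and 5.43 and 5.23 in 2D (difference 0.14, 95% interval -0.18 to 0.45). Replicate 1 gave -0.58 for the second and 0.23 for the first, with opposite signs. CA12, on its only probe set, read 7.68 and 8.44 in 3D and 7.96 and 8.12 in 2D. The 2 3D arrays lay on either side of the 2D arrays, the widest within-group spread of the 16 probe sets (SD 0.537 in 3D and 0.113 in 2D, n = 2 each), and the 95% interval of the difference was correspondingly wide, -0.57 to 0.61 around 0.02. In replicate 1 CA12 read 5.50 in 3D and 6.73 in 2D, a difference of -1.23.

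**Figure D1:**
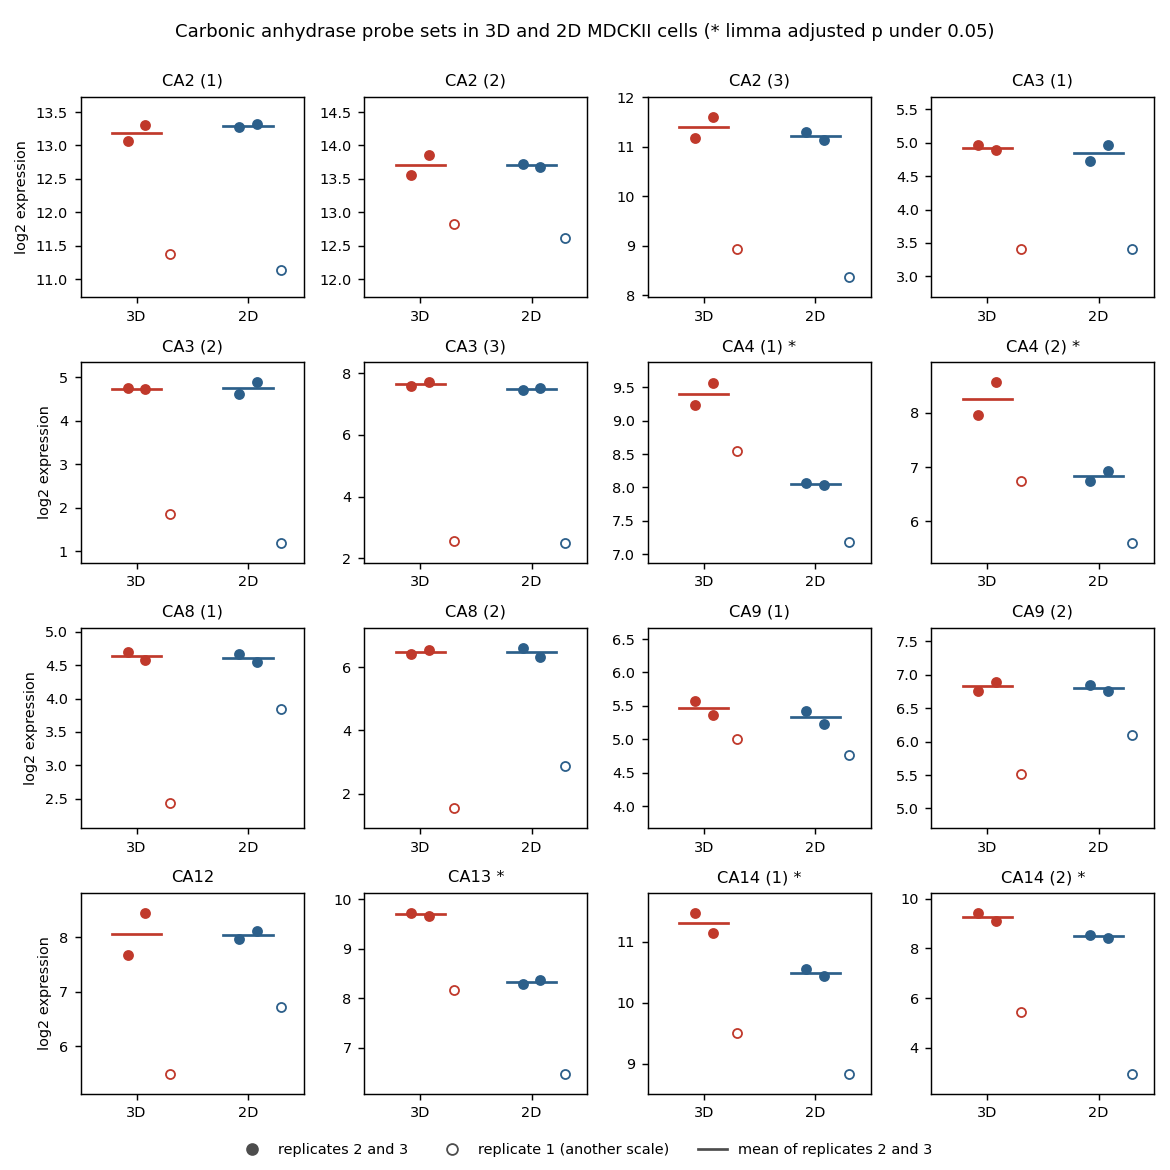
Log2 expression of the 16 carbonic anhydrase probe sets, 1 panel each, with 3D at left and 2D at right; filled points are replicates 2 and 3, bars their mean, and open points replicate 1, which is on another scale. Numbers in brackets count a gene's probe sets, each panel has its own vertical range of at least 3 units, and asterisks mark limma adjusted p under 0.05; both 3D points lie above both 2D points for CA4, CA13 and CA14.

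CA13 encodes a cytosolic enzyme. Its only probe set read 9.72 and 9.67 in 3D against 8.30 and 8.38 in 2D. Replicates lay within 0.1 of each other in each group, and the groups were more than 1 unit apart. CA13 had the smallest adjusted p of the 16 probe sets: it rose 2.56-fold, a log2 difference of 1.36 (SE 0.1, 95% interval 1.11 to 1.60, adjusted p = 0.00522 by limma over 2 arrays a group). Replicate 1 read 8.16 in 3D and 6.48 in 2D, a difference of 1.68.

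CA2 encodes the highly active cytosolic enzyme of tubule cells, whose loss in humans causes renal tubular acidosis. All of its 3 probe sets lay above the arrays' upper quartiles of 8.80 to 8.85 in replicates 2 and 3, and 0 of the 3 passed. The second read 13.56 and 13.85 in 3D and 13.72 and 13.68 in 2D, with the 2D values between the 3D values (difference 0.01, 95% interval -0.31 to 0.32, limma adjusted p = 0.988). The first read 13.07 and 13.30 in 3D and 13.27 and 13.32 in 2D (difference -0.11, 95% interval -0.40 to 0.18), and the third 11.18 and 11.61 in 3D and 11.31 and 11.13 in 2D (difference 0.18, 95% interval -0.23 to 0.58). In replicate 1 all 3 were higher in 3D, by 0.24 for the first, 0.21 for the second and 0.57 for the third.

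CA3, a cytosolic enzyme of low activity known from muscle, liver and fat, also did not pass. Of its 3 probe sets, the first and the second lay below the lower quartile on all 4 arrays. The first read 4.96 and 4.89 in 3D and 4.73 and 4.97 in 2D, and the second 4.75 and 4.73 in 3D and 4.63 and 4.89 in 2D, so that both overlapped between groups. The third read 7.60 and 7.71 in 3D against 7.47 and 7.53 in 2D. It was the sixth member probe set whose groups did not overlap, all 6 being higher in 3D (25.1% of all probe sets were) and 0 lower (26.7% of all), at a difference of 0.16 (95% interval -0.10 to 0.41, limma adjusted p = 0.439). In replicate 1 the differences were 0, 0.65 and 0.05 for the first, the second and the third. Both replicate 1 values of the second and of the third lay below the lower quartile of their array.

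CA8 encodes a protein of this fold that lacks enzyme activity and binds the IP3 receptor ITPR1. It read 6.40 and 6.53 in 3D and 6.61 and 6.32 in 2D on its second probe set (difference 0.0, 95% interval -0.32 to 0.32). The first read 4.69 and 4.57 in 3D and 4.66 and 4.54 in 2D, below the lower quartile on all 4 arrays (difference 0.03, 95% interval -0.23 to 0.29). In replicate 1 both CA8 probe sets were lower in 3D, with differences of -1.42 on the first (2.43 in 3D and 3.85 in 2D) and -1.33 on the second (1.54 in 3D and 2.87 in 2D). Of these 4 values all but 3.85 lay below the lower quartile of their array.

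**Figure D2:**
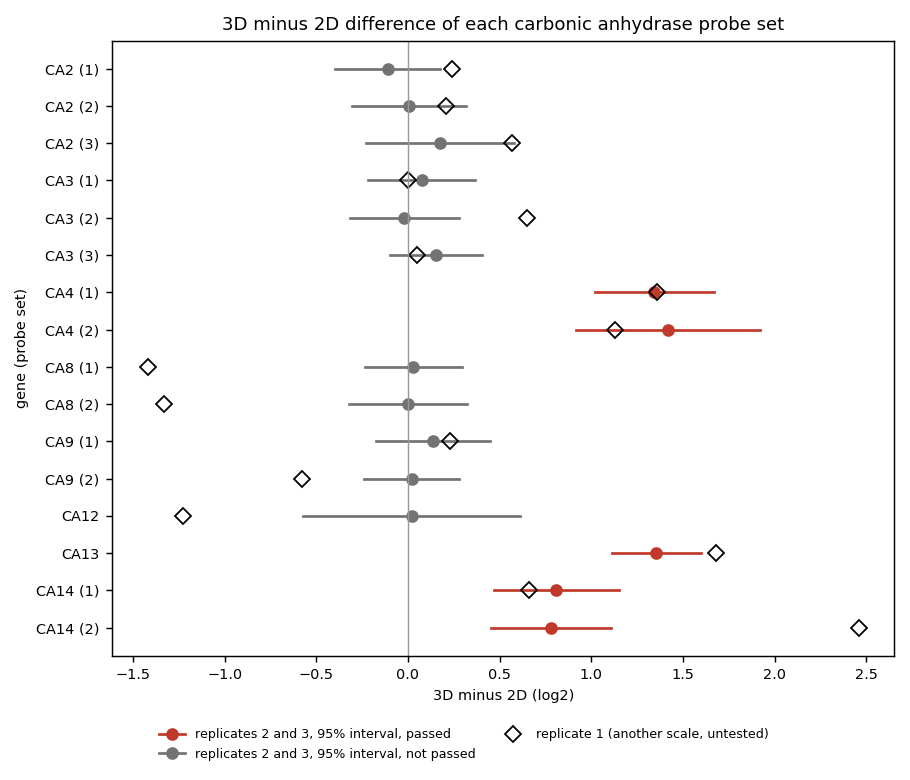
3D minus 2D difference on the log2 scale for each of the 16 probe sets; circles and lines are the limma estimate and its 95% interval from replicates 2 and 3 (n = 2 arrays per group), and open diamonds the untested replicate 1 difference on its own scale. The 5 probe sets of CA4, CA13 and CA14 lie above 0 with both measures, whereas for CA8, CA12 and the second CA9 probe set the diamond is well below an interval that covers 0.

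Across the uncalled members the differences ran from -0.11 to 0.18, and no interval reached beyond -0.57 or 0.61. A change of 2-fold, 1 on the log2 scale, therefore lay outside the interval of each of the 11 probe sets on replicates 2 and 3, which covers the spread between 2 arrays per group only. The replicate 1 difference, on its own scale, lay outside the interval for 6 of these 11: both CA8 probe sets, CA12 and the second CA9 probe set below it, the second CA3 and the first CA2 probe set above it. It also lay above the interval for CA13 and for the second CA14 probe set. Sizes cannot be compared between the 2 scales, and the share of all probe sets that lie outside their interval was not counted. These departures were not tested and are not shown to be particular to the carbonic anhydrases. Counting all 3 replicate numbers, 3D was above 2D in each of the 3 for 7 of the 16 probe sets, against 15.7% of all probe sets, and below 2D in each for 0, against 20.6%. The 7 were the 5 that passed, the third of CA3 and the first of CA9. The 5 were called on replicates 2 and 3, so that only replicate 1 adds to the count for them. The third of CA3 lay below the lower quartile on both replicate 1 arrays, and the first of CA9 on all 4 arrays of replicates 2 and 3.

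The calls of CA4, CA13 and CA14 rest on all 4 arrays. Leaving out any 1 array (3D replicate 2 or 3, or 2D replicate 2 or 3) could not turn a sign, because the groups did not overlap. The 5 differences were then 1.12 to 1.73 for CA4, 1.32 to 1.40 for CA13 and 0.63 to 0.98 for CA14. The limma adjusted p then lay between 0.0921 and 0.433, where 0 of all 42924 probe sets passed and 4683 to 10892 had an unadjusted p under 0.05. With the 6 arrays in 1 fit without a replicate block the differences were 1.35 and 1.32 for CA4, 1.46 for CA13 and 0.76 and 1.34 for CA14, each with a limma adjusted p of 1. With the replicate number as a block, the lowest limma adjusted p of the 5 was 0.571 over the 6 arrays and 0.153 over replicates 2 and 3. With probe sets averaged by gene the 3 passed, CA4 at 1.38 (limma adjusted p = 0.0110), CA13 at 1.36 (limma adjusted p = 0.00286) and CA14 at 0.80 (limma adjusted p = 0.0246).

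In the gene table of the dog assembly UU_Cfam_GSD_1.0, used for names and neighbours only, CA13, CA1, CA3 and CA2 follow one another on chromosome 29 with no other protein-coding gene between them. CA13 rose in this row of genes, while the intervals of CA1, CA3 and CA2 covered 0. The CA13 value rests on its only probe set, which ends in _s_at, the mark for probes that can match more than 1 transcript. CA1, the enzyme known from red blood cells, read 6.11 and 5.98 in 3D and 6.15 and 6.09 in 2D (difference -0.08, limma adjusted p = 0.744); it was picked for its position and has 3 probe sets. In replicate 1 this one gave -2.41 and the other 2 gave 2.91 and 2.32, so that its probe sets disagreed in sign there. CA8 lies elsewhere on the same chromosome, and CA4, CA9, CA12 and CA14 lie on chromosomes 9, 11, 30 and 17. The probe annotation names 8 further family members, CA1, CA5A, CA5B, CA6, CA7, CA10, CA11 and CA15, of which 0 passed with 1 probe set per gene (0 at an unadjusted p under 0.05), with a median difference of -0.085. Of all genes 4.2% were higher and 3.09% lower, and 25.2% had an unadjusted p under 0.05. CA11, a member without enzyme activity, read 8.0 and 8.04 in 3D against 7.94 and 7.71 in 2D (difference 0.20, limma adjusted p = 0.392, but -0.69 in replicate 1). Of its 5 probe sets 0 passed, and they differed in sign, from -0.22 to 0.25. The 1 probe set among all of theirs that passed belongs to CA5B, a mitochondrial enzyme, and was chosen for mention after its values were seen. It read 5.12 and 4.89 in 3D against 4.44 and 4.35 in 2D (difference 0.61, limma adjusted p = 0.0413), below the lower quartile on all 4 arrays, and the other 2 CA5B probe sets did not pass, at 0.29 and 0.25.

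Bicarbonate made or used by these enzymes crosses membranes on SLC4 and SLC26 transporters. The list used here held such genes and CFTR. Of its 15 measured genes 5 lay below the lower quartile on all 4 arrays. Among the 15, 0 were higher (4.2% of all genes were) and 1 was lower (3.09% of all), with a median of -0.04 against -0.01 over all genes. An unadjusted p under 0.05 was reached by 3 of them, against 25.2% of all genes. The one was SLC4A7, a sodium-bicarbonate cotransporter, which read 8.41 and 8.69 in 3D against 9.74 and 9.89 in 2D (difference -1.27, SE 0.133, adjusted p = 0.0108 by limma over 2 arrays a group) and was lower in replicate 1 too, by -0.65. Among 12 proton exporters and lactate transporters 1 was higher and 0 were lower, set against the same shares of all genes, and 3 had an unadjusted p under 0.05. HVCN1, a voltage-gated proton channel, read 7.40 and 6.89 in 3D against 5.78 and 6.26 in 2D (difference 1.13, SE 0.223, adjusted p = 0.0424 by limma over 2 arrays a group), but in replicate 1 it was lower in 3D, by -0.74. Of 4 measured pH sensors 0 passed (0 at an unadjusted p under 0.05), with GPR4, a proton-sensing receptor, at -0.20 (limma adjusted p = 0.305).

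The 5 IP3 receptor and IRBIT genes, which include the CA8 partner ITPR1, had a median of 0.40 in replicates 2 and 3 and of -0.53 in replicate 1. ITPR1 itself did not pass, at 0.395 (limma adjusted p = 0.0769), and was above 0 in replicate 1, at 0.96, unlike that median. By limma 2 of the 5 were higher (4.2% of all genes) and 0 lower (3.09% of all). An unadjusted p under 0.05 was reached by 3, against 25.2% of all genes. AHCYL1 encodes IRBIT, which competes with IP3 for its receptor and activates the bicarbonate cotransporter NBCe1. It read 12.13 and 11.91 in 3D against 11.36 and 11.41 in 2D (difference 0.64, SE 0.116, adjusted p = 0.0346 by limma over 2 arrays a group), and 1 of its 2 probe sets passed. AHCYL2, its relative, read 7.23 and 7.13 in 3D against 6.38 and 6.59 in 2D (difference 0.70, SE 0.117, adjusted p = 0.0288 by limma over 2 arrays a group). Both had the opposite sign in replicate 1, at -0.39 and -0.53.

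CA9 is known in human cells as a target of the hypoxia-inducible factors, and other such targets changed in both directions. Of 24 measured genes 5 were lower and 2 higher (3.09% and 4.2% of all genes), with a median of -0.20. An unadjusted p under 0.05 was reached by 15 of the 24, against 25.2% of all genes, a gap that was not tested. The 2 higher were ALDOC, a glycolytic aldolase (1.13, limma adjusted p = 0.0350), and PDK1, a kinase that inhibits pyruvate dehydrogenase (0.81, limma adjusted p = 0.0431), named here after their values were seen. The 4 with the smallest adjusted p all fell: LOX, which crosslinks collagen (difference -2.19), SLC2A1, the glucose transporter GLUT1 (-0.98), VEGFA, a growth factor for vessels (-1.52), and PFKFB3, which stimulates glycolysis (-0.86), with limma adjusted p from 0.00861 to 0.0331. SLC2A1 read 11.98 and 12.13 in 3D against 13.01 and 13.06 in 2D, with a replicate 1 difference of -1.53, while CA9 overlapped between the groups. Of 6 regulators of the factors 0 passed (2 at an unadjusted p under 0.05), HIF1A being at -0.23 (limma adjusted p = 0.355).

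**Figure D3:**
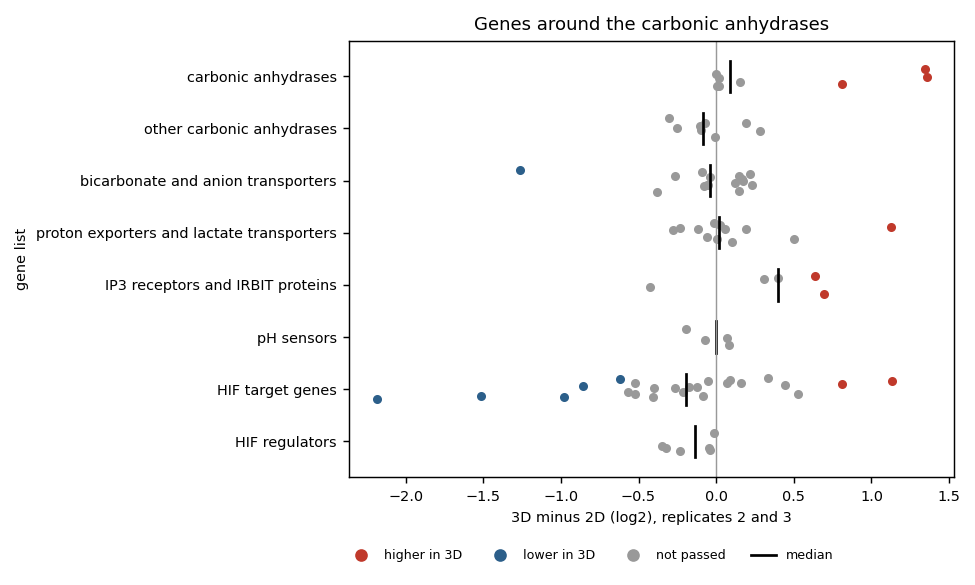
3D minus 2D difference on the log2 scale (replicates 2 and 3) for each measured gene, 1 probe set per gene, in the carbonic anhydrases and in the lists of related genes; red points passed as higher in 3D, blue as lower, grey did not pass, and black lines are medians. Among the 8 carbonic anhydrases 3 points stand at 0.81 to 1.36 and the other 5 within 0.2 of 0.

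No gene passed in the lists of markers of tubule cell types that use particular carbonic anhydrases. Of all genes 4.2% were higher in 3D and 3.09% lower. In lists this short 0 calls lie near those shares and tell little about these cell types. Of 9 measured proximal tubule markers 0 passed, with a median of -0.065. CUBN, the receptor cubilin, had 9.03 and 8.35 in 3D against 7.92 and 7.69 in 2D (difference 0.89, limma adjusted p = 0.0781, but -1.56 in replicate 1). Summed on the linear scale, these markers came to 1547 and 1373 in 3D and 1327 and 1185 in 2D, a gap that CUBN carries. Without CUBN, which was left out after its values were seen, the sums of the other 8 were 1024 and 1047 in 3D and 1085 and 978.8 in 2D and overlapped. Their part in the rise of CA4 and CA14 was not tested. Of 12 intercalated cell markers 0 passed, with sums of 1569 and 1530 in 3D and 1506 and 1499 in 2D. Both of these 3D sums lay above both 2D sums. FOXI1, the defining transcription factor of intercalated cells, was at 0.09. Of 7 principal cell and 4 thick ascending limb markers 0 passed either, with GATA3 at 0.02 and CLDN16 at 0.13. Of 15 measured markers of fibroblasts, endothelium, leukocytes, red cells and muscle 0 passed, 4 were below the lower quartile on all 4 arrays, and the sums were 1737 and 1718 in 3D and 1600 and 1661 in 2D. Both 3D sums were again above both 2D sums, whereas the sums of the principal cell and thick ascending limb markers overlapped. Sums over probe sets follow the brightest of them and are not amounts of RNA. The gaps between sums were not tested. CDH5, an endothelial cadherin, was at 0.02. At an unadjusted p under 0.05 by limma there were 1 proximal tubule marker, 0 intercalated, 0 principal cell and 0 thick ascending limb markers, and 2 markers of the other cell types. Of all genes 25.2% reached it.

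The genes whose values most resembled those of each raised member were found by the Euclidean distance between profiles over the 4 arrays of replicates 2 and 3, each centred on its own mean, as a description over 4 arrays. Only genes with 1 symbol were searched, and those whose symbol starts with LOC were left out. For CA13 they were MLF1, CYP4A37 and CPE, at distances of 0.103, 0.111 and 0.118. For CA4 they were CLEC7A, LY96 and NME5, at 0.0931, 0.110 and 0.141. For CA14 they were PIGH, ETHE1 and TMEM97, at 0.0497, 0.0640 and 0.0671. All 9 passed as higher in 3D, which follows from choosing them on the same 4 arrays and is no separate result. Replicate 1 was not used in the choice. There the 9 differences were above 0, from 0.45 for TMEM97 to 2.13 for MLF1. The median of -0.11 over all genes is no matched comparison, because the 9 were chosen for resembling raised members. Replicate 1 was not summarized over the other genes that passed as higher, so no likeness to the members is drawn from it.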

How the data were processed

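Biotin-labelled cRNA made from 4 µg total RNA was hybridized to 1-colour Affymetrix canine arrays, per the labels' protocols. The deposited table holds log2 expression for 6 arrays; RMA and limma are named in the submitters' processing notes, with no versions; the probe set definition and the making of the replicate 1 values were not given in the sources used here. From it, 111 control probe sets were left out, and 29254 probe sets with 1 symbol in the platform annotation (439 had several and 13231 none, and are unnamed here) stood for 15115 genes. Identifiers of 7 of the 8 members were found in the gene table, and CA14 was found by symbol.

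The 3D minus 2D difference was estimated with limma (version 3.58.1, under R 4.3.3; lmFit, then eBayes). Its two-sided p-values were adjusted by Benjamini-Hochberg over all 42924 probe sets. Dim probe sets were kept because detection calls are not part of the values; the number of arrays limits the precision. Counts by gene used the 1 probe set whose signal averaged highest across the 6 arrays. The fit was tested on simulated data. Joins used pandas 2.3.3 and numpy 2.4.6, and plots matplotlib 3.10.9, in Python 3.11.15. Of the 16 member probe sets 11 end in _s_at, Affymetrix's mark for probes that can match more than one transcript. The members and lists were chosen with earlier results of these data known. Named were every member probe set; per list up to 4 genes that passed with the smallest adjusted p, or else the brightest; and the 3 genes most alike each member that passed. CA1, a CA5B probe set, ALDOC and PDK1 were named beside this rule. Alternatives were the replicate block, all 6 arrays, other scalings, priors, filters and gene summaries, and each array left out.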

Additional observations from a re-analysis of the deposited data

How the results depend on the processing

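With 2 arrays per group on 1 scale, the calls depend on the fit. All 5 called carbonic anhydrase probe sets stayed above 0 in 13 of 13 alternatives, but in many of these the sign was fixed beforehand. The replicate block on replicates 2 and 3, the priors and the filter leave the difference unchanged. With 1 array left out the sign cannot turn, because the groups of the 5 do not overlap. The 5 passed in 4 of the 13 alternatives: median centring, quantile normalizing again, trend and robust priors, and leaving out dim probe sets. Under the other 9 (6 arrays without or with a replicate block, median centred or quantile normalized; the replicate block on replicates 2 and 3; each array left out) 0 carbonic anhydrase probe sets, 0 of their genes and 0 genes of the lists passed in either direction by limma, against 5, 3, and 5 higher and 6 lower as reported. Over all probe sets 2 were higher and 0 lower with 6 arrays median centred or quantile normalized, and 0 in both directions under the other 7, where 105 (6 arrays without a block) to 10892 had an unadjusted p under 0.05; as reported, 1565 were higher and 1272 lower. On replicates 2 and 3 same-numbered arrays did not deviate together (r = 0.00127), while both replicate 1 arrays share a scale of their own and correlated best with each other (r = 0.888, against 0.861 to 0.872 with the rest). The labels name no shared batch, so the numbers were not taken as pairs. With the replicate block on replicates 2 and 3 all 5 had an adjusted p of 0.153. The cause of these losses was not tested. Directions turned only for probe sets that had not passed. With 6 arrays, without and with the replicate block alike, the first CA2 probe set was at 0.00667, the second CA3 at 0.203, the first CA8 at -0.453, the second CA9 at -0.18 and CA12 at -0.397. With 6 arrays median centred these 5 were at 0.05, 0.247, -0.41, -0.137 and -0.353. With 6 arrays quantile normalized, the second CA2 probe set was at -0.0297 and the last 4 at 0.232, -0.274, -0.121 and -0.353. On replicates 2 and 3, the second CA2 probe set was at -0.01 median centred and -0.0206 quantile normalized again, where CA12 was at -0.000625. With 1 array left out, a lone array being assumed to vary like the other group, CA2 ranged from -0.225 to 0.005 (first), -0.14 to 0.15 (second) and -0.04 to 0.39 (the third), CA3 from -0.045 to 0.195 (first) and -0.15 to 0.11 (second), the first CA8 from -0.03 to 0.09, the second CA9 from -0.045 to 0.085 and CA12 from -0.36 to 0.4.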
